A study of Mus musculus with 9 samples.

Results

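The genes of MHC antigen processing and presentation were followed in normal mouse mammary gland and in Wnt1-driven mammary tumours. The set was drawn up by function as 10 genes: B2m, Tap1, Tap2, Tapbp, Psmb8, Psmb9, Cd74, H2-Aa, H2-Eb1 and Ciita. A gene was taken up where a probe set carried its symbol and no other, and its brightest probe set stood for it. This found 9 of the 10 genes, out of 22180 genes with such a probe set on the array. The only probe set for Cd74, the invariant chain of class II molecules, also carries the symbol Mir5107, so no value is given for Cd74.

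MHC molecules show peptides to T cells. In the class I route, the proteasome, whose catalytic subunits can be exchanged for the immunoproteasome subunits Psmb8, Psmb9 and Psmb10, cuts cytosolic proteins into peptides, the Tap1 and Tap2 transporter carries them into the endoplasmic reticulum, and tapasin (Tapbp) helps to load them on a heavy chain bound to beta-2 microglobulin (B2m). In the class II route, professional antigen-presenting cells load peptides from endosomes on alpha and beta chains such as H2-Aa and H2-Eb1, whose transcription needs the coactivator Ciita. Interferon-gamma raises both routes, the class I genes partly through Nlrc5 and the class II genes through Ciita.

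Expression was measured in female FVB mice with 1 Mouse Gene 2.0 ST array per mouse and 3 mice per group. Normal mammary glands came from littermates with wild-type Wnt1, collected at 533 to 556 days. Non-metastatic tumours (222 to 354 days at collection, onset at 192 to 306) and metastatic tumours (281 to 300 days, onset at 194 to 251) came from MMTV-Wnt1 transgenic mice, in which a mammary tumour virus promoter drives the secreted factor Wnt1, mainly in mammary epithelium. All 3 groups, controls included, drank 6% sucrose with 200 ug/ml doxycycline from the age of 6 weeks, and tumours were taken at a size of 20 mm. The normal glands were thus older than every tumour-bearing mouse, so tumour and age cannot be told apart in any comparison with normal gland. The samples are pieces of whole tissue, so fewer cells of a type and less RNA per cell cannot be told apart either.

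Values are log2 expression, and compare arrays for 1 gene but not genes with each other. Array medians lay between 5.80 and 5.94. Wnt1 read 5.45 to 5.71 in the normal glands and 11.20 to 12.40 in the tumours, which follows the genotype labels. Mammary luminal markers were present on all arrays, and Epcam, an epithelial adhesion molecule, read 9.81 to 11.07 in normal glands and 11.36 to 11.85 in tumours. Normal gland 2 stood apart through skeletal muscle and epidermal genes: the mean of its 5 gene-centred muscle markers was 3.72, against -1.30 to 1.51 on the other 8 arrays. The adipocyte marker mean was 2.95 to 4.03 in normal glands and -2.59 to -0.59 in tumours. All 5 adipocyte markers fell in both tumour groups by limma, where 7.6% of all genes fell in non-metastatic and 6% in metastatic tumours. Non-metastatic tumour 1 was the tumour at -0.59, and the other tumours lay between -2.59 and -1.44. It also had the lowest mean of 4 basal epithelial markers. Their gene-centred mean was -1.68 in this tumour, 0.15 to 1.02 in the other tumours and -0.69 to 0.71 in normal glands. Trp63 (6.53) and Krt17 (6.14) were lowest on this array. Acta2 read 10.67 there and 10.72 in non-metastatic tumour 2, and Krt14 read 8.38 there and 8.13 in normal gland 1.

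Of the 10 genes, 7 have an entry in the RefSeq promoter table used here (GRCm38.p6), and Tap2, Cd74 and Ciita do not. The letters below are those of the reference genome and were not read from the FVB mice. Several of these genes lie side by side in the class II region of chromosome 17. In RefSeq order, Psmb9, Tap1, Psmb8, Tap2, H2-Ob, H2-Ab1, H2-Aa and H2-Eb1 are 8 consecutive coding genes there. Tapbp also lies on chromosome 17, B2m on chromosome 2 and Ciita on chromosome 16. Psmb9 and Tap1 are transcribed away from each other, with 225 bases between their starts, so that a single stretch serves as upstream sequence of both.
Psmb9 and Tap1, shared stretch, chr17:34187331-34187555, plus strand: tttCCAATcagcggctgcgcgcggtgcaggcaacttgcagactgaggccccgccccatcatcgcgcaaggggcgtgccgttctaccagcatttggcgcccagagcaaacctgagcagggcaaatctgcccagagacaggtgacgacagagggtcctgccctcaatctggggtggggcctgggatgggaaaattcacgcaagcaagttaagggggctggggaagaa
B2m, chr2:122147437-122147686, plus strand: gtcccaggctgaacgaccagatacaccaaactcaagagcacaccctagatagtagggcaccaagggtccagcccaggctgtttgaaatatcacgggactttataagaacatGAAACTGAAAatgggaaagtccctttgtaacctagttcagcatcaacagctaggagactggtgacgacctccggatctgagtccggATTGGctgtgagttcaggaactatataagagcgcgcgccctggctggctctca
Psmb8, chr17:34197945-34198194, plus strand: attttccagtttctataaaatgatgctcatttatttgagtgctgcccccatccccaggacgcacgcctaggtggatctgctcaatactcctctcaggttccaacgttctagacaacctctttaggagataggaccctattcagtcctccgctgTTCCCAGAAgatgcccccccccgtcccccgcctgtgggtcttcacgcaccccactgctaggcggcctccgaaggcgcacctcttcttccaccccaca
H2-Aa, chr17:34287824-34288073, minus strand: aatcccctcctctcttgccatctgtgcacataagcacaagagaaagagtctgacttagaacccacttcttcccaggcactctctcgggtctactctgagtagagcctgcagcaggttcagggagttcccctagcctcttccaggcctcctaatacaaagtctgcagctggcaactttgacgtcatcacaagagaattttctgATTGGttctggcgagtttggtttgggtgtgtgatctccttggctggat
Capitals mark matches to 3 motifs searched on both strands of the 250 bases before each start. CCAAT, the box bound by NF-Y, reads ATTGG where it lies on the other strand. The interferon response core was GAAA, any 2 bases and GAAA again, and the STAT site was TTCNNNGAA.

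CCAAT was found before 6 of the 7 genes, all but Psmb8, and in 33.8% of 32851 RefSeq promoter windows of the same length. Psmb9 and Tap1 share 1 box, which lies 8 to 4 bases before the Psmb9 start and 222 to 218 bases before that of Tap1. In H2-Aa the box lies 48 to 44 bases before the start and in B2m 53 to 49. The interferon response core was found before B2m alone, as GAAACTGAAA at 139 to 130 bases, and in 2.98% of all windows. The STAT site was found before Psmb8 alone, as TTCCCAGAA at 97 to 89 bases, and in 7.02% of all windows. These matches describe letters, not binding.

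The 6 class I processing genes read lower in each metastatic tumour than in each normal gland, and varied most among the non-metastatic tumours. None of the 9 genes passed an adjusted p of 0.05 in any comparison by limma. For 6 genes, B2m, Tap1, Tap2, Tapbp, Psmb8 and Psmb9, the metastatic values all lay below the normal ones, as for 15.3% of all genes tested. H2-Aa, H2-Eb1 and Ciita overlapped. In 8 of 9 genes non-metastatic tumour 1 was the highest of all 9 arrays, against 13.7% of all genes tested. The genes varied together, so they are not separate observations.

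**Figure D1:**
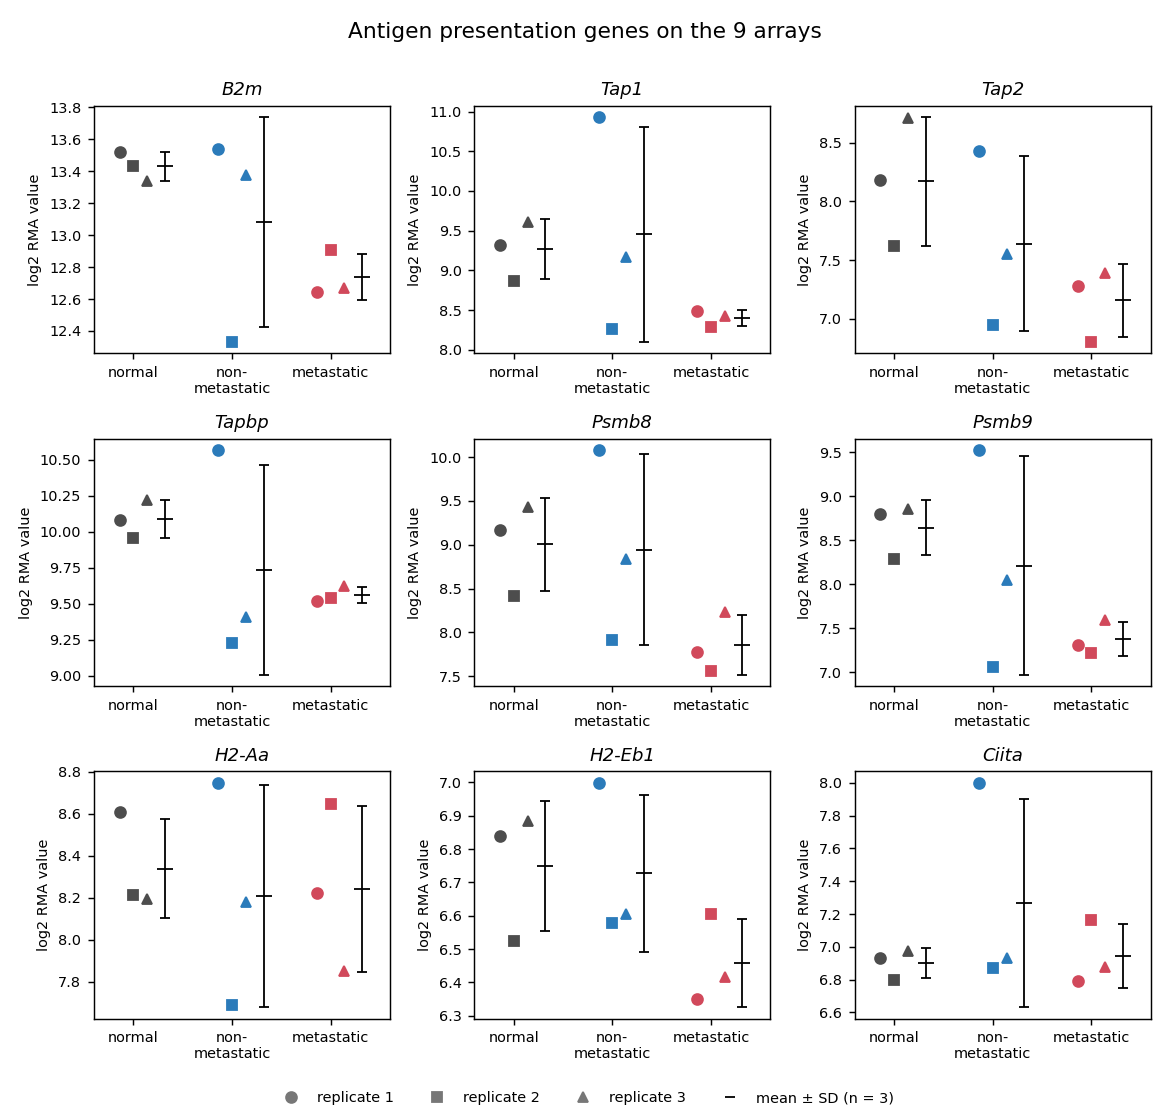
Log2 expression of the 9 genes (y axis, own scale for each gene) on the 9 arrays, by group (x axis) and replicate (marker shape), with the group mean and SD (n = 3) beside the points. Non-metastatic tumour 1 tops every panel except that of Tap2, and the 3 metastatic tumours lie below the 3 normal glands for B2m, Tap1, Tap2, Tapbp, Psmb8 and Psmb9.

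B2m, the light chain of all class I molecules, read 13.52, 13.44 and 13.34 in the normal glands, 13.54, 12.33 and 13.38 in non-metastatic tumours 1, 2 and 3, and 12.65, 12.90 and 12.67 in the metastatic tumours. The normal glands lay close together and above all metastatic tumours by at least 0.43, and the non-metastatic group spanned both, with its tumours 1 and 3 at the normal level and tumour 2 the lowest of the 9. The metastatic mean was 12.74 ± 0.14 (SD, n = 3) against 13.43 ± 0.09 in normal glands. The change was -0.69 (SE 0.28, 95% interval -1.35 to -0.04, adjusted p 0.15 by limma), so it did not pass after adjustment.

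Tap1, a subunit of the peptide transporter, read 9.32, 8.87 and 9.61 in normal glands, 10.93, 8.26 and 9.17 in non-metastatic tumours and 8.49, 8.28 and 8.42 in metastatic tumours. Non-metastatic tumour 1 was 1.76 above the next tumour, and the metastatic tumours lay close together below all normal glands. Their mean was 8.40 ± 0.11 against 9.27 ± 0.38 (SD, n = 3 each), a change of -0.87 (SE 0.58, adjusted p 0.35 by limma). The SE is larger than these 2 groups' own spread would give, because the fit pools the spread of all 3 groups.

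Tap2, the partner subunit, read 8.18, 7.62 and 8.71 in normal glands, 8.43, 6.94 and 7.55 in non-metastatic tumours and 7.27, 6.80 and 7.39 in metastatic tumours. Normal gland 3 was the highest of the 9 arrays, the one gene here for which non-metastatic tumour 1 was not. The smallest gap between normal and metastatic values was 0.22, and the change was -1.01 (SE 0.40, 95% interval -1.94 to -0.09, adjusted p 0.13 by limma).

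Tapbp, the loading chaperone tapasin, read 10.08, 9.96 and 10.22 in normal glands, 10.57, 9.23 and 9.41 in non-metastatic tumours and 9.52, 9.54 and 9.62 in metastatic tumours. Apart from non-metastatic tumour 1, every tumour lay below every normal gland. The metastatic SD of 0.05 was the smallest of any gene and group in the set, and the change from normal was -0.53 (SE 0.31, adjusted p 0.29 by limma). Another Tapbp probe set with 1 symbol stayed between 6.13 and 6.58 on all 9 arrays.

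Among the 9 genes, the immunoproteasome subunits Psmb9 and Psmb8 had the largest differences between metastatic tumours and normal glands. Psmb8 read 9.17, 8.41 and 9.43 in normal glands, 10.08, 7.92 and 8.84 in non-metastatic tumours and 7.78, 7.56 and 8.23 in metastatic tumours. Normal gland 2 was nearest the metastatic tumours, 0.18 above the highest of them. The change was -1.15 (SE 0.51, 95% interval -2.33 to 0.04, adjusted p 0.18 by limma).

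Psmb9 read 8.79, 8.28 and 8.85 in normal glands, 9.53, 7.06 and 8.05 in non-metastatic tumours and 7.31, 7.22 and 7.60 in metastatic tumours. The groups were 0.69 apart at their nearest, the widest gap of the 6 genes, while non-metastatic tumour 2 fell below all metastatic tumours. The metastatic mean was 2.41-fold lower than the normal mean, a change of -1.27 (SE 0.53, 95% interval -2.48 to -0.05, adjusted p 0.15 by limma).

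For the class II chains and Ciita, metastatic and normal values overlapped. H2-Aa, the alpha chain of I-A, read 8.61, 8.21 and 8.19 in normal glands, 8.75, 7.69 and 8.18 in non-metastatic tumours and 8.22, 8.65 and 7.85 in metastatic tumours. All 3 groups overlapped, and metastatic tumour 2 was the second highest of the 9. The metastatic change from normal was -0.10 (SE 0.29, 95% interval -0.77 to 0.58, adjusted p 0.86 by limma).

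H2-Eb1, the beta chain of I-E, read 6.84, 6.53 and 6.88 in normal glands, 7.00, 6.58 and 6.61 in non-metastatic tumours and 6.35, 6.61 and 6.42 in metastatic tumours. Its range over the 9 arrays was narrow, and metastatic tumour 2 lay above normal gland 2. The change was -0.29 (SE 0.16, adjusted p 0.25 by limma). Ciita, the class II coactivator, read 6.93, 6.80 and 6.98 in normal glands, 8.00, 6.87 and 6.93 in non-metastatic tumours and 6.79, 7.16 and 6.88 in metastatic tumours. Non-metastatic tumour 1 stood 0.84 above the next tumour, and the other 8 arrays lay within 6.79 to 7.16. The metastatic mean of 6.94 ± 0.19 and the normal mean of 6.90 ± 0.09 (SD, n = 3 each) differed by 0.04 (SE 0.28, adjusted p 0.94 by limma).

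For metastatic tumour against normal gland, 0 of 9 genes passed the adjusted threshold, where 13.3% of the 17478 genes tested did. At an unadjusted p under 0.05 in limma, 3 of 9 passed (B2m, Tap2 and Psmb9), near the 30.5% of all genes. Values without overlap and lower in the metastatic group were seen in 6 of 9 genes and in 15.3% of all genes. This was not particular to the set. It was seen in 8 of 10 interferon-gamma targets outside the MHC, 6 of 8 T cell markers and 4 of 5 costimulatory genes. The count was 3 of 4 for natural killer cell markers, 3 of 9 for macrophage markers and 0 of 13 for the constitutive proteasome core. The difference was negative in 8 of 9 genes and in 44.8% of all genes, with a median of -0.69 for the set and 0.04 over all genes. The metastatic mean was the lowest of the 3 group means for 7 of 9 genes, all but H2-Aa and Ciita, and for 26% of all genes. When non-metastatic tumour 1, which is in neither group of this comparison but widens the pooled spread, was left out of the fit, Tapbp (adjusted p 0.029) and Psmb9 (adjusted p 0.033) passed in limma, and when non-metastatic tumour 2 was left out B2m passed (adjusted p 0.019). With only the 6 arrays compared in the fit, B2m, Tap1, Tapbp and Psmb9 passed, at adjusted p 0.026, 0.045, 0.034 and 0.022. With age at collection as a covariate, 0 of all genes passed in limma in any comparison with normal gland, and the differences of 8 of 9 genes of the set turned positive in this one, for example to 1.51 for B2m and 2.92 for Psmb9.

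**Figure D2:**
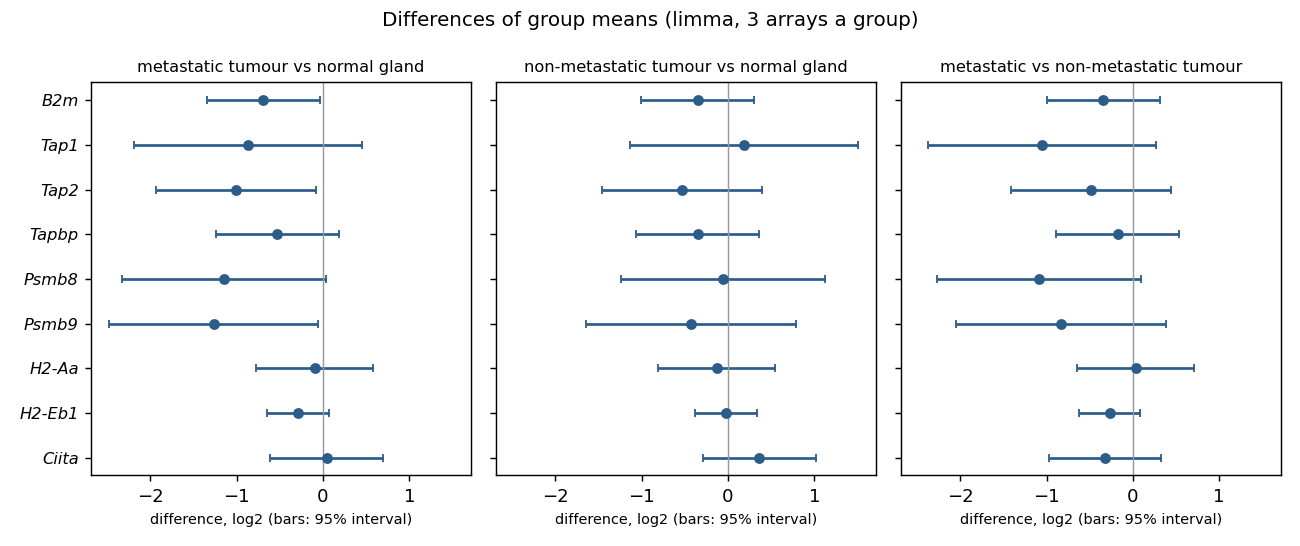
Difference of group means on the log2 scale (x axis, points) with 95% intervals from limma (bars) for the 9 genes (y axis) in 3 comparisons of groups of 3 arrays. The intervals for B2m, Tap2 and Psmb9 lie below 0 in metastatic tumour against normal gland; every other interval spans 0.

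Non-metastatic tumours against normal glands gave smaller differences for most of the set, from -0.53 for Tap2 to 0.36 for Ciita. By limma 0 of 9 genes passed, against 18.8% of all genes, and the adjusted p ranged from 0.40 to 0.95. At an unadjusted p under 0.05 it was again 0 of 9, against 34.4% of all genes. The median of the set was -0.13 and that of all genes 0.05, with 7 of 9 differences negative against 44.4% of all genes, and 0 of 9 genes were without overlap in either direction, against 36.2% of all genes. The call depended on 1 tumour: without non-metastatic tumour 1, Tapbp passed at adjusted p 0.016 by limma.

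Metastatic against non-metastatic tumours, the comparison named in the study's title, gave 0 of 9 genes past the threshold by limma, where 0.00572% of all genes (1 gene) passed. At an unadjusted p under 0.05, 0 of 9 passed against 5.07% of all genes. The largest differences were -1.09 for Psmb8 (SE 0.51, 95% interval -2.27 to 0.10), -1.05 for Tap1 (SE 0.58, interval -2.38 to 0.27) and -0.84 for Psmb9 (SE 0.53, interval -2.05 to 0.38), all at adjusted p 0.88 in limma. Differences were negative in 8 of 9 genes and in 54.3% of all genes, and 0 of 9 genes were without overlap in either direction, against 10.3% of all genes. These intervals hold 0 as well as differences below -2, so the comparison does not show that the 2 tumour groups express the genes alike. Left without non-metastatic tumour 1, the differences of Tapbp and Ciita changed sign, to 0.24 and 0.04.

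With both tumour groups averaged and set against normal gland, 0 of 9 genes passed by limma and 0 of 9 at an unadjusted p under 0.05, against 22.8% and 37.1% of all genes. The differences ran from -0.85 for Psmb9 and -0.77 for Tap2 to 0.20 for Ciita. Leaving out non-metastatic tumour 1 brought 3 genes past the threshold, Tap2 (adjusted p 0.049), Tapbp (0.0082) and Psmb9 (0.019) in limma. The comparisons with normal gland share the same 3 control arrays.

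The 3 non-metastatic tumours stood in the same order, 1 over 3 over 2, for all 9 genes. Over all genes tested, 14.3% had this order. The distance from tumour 1 to tumour 2 was largest for Tap1, at 10.93 and 8.26, and Psmb9, at 9.53 and 7.06. Non-metastatic tumour 1 was the highest of the 6 tumours for 9 of 9 genes, against 22.6% of all genes, and the highest of the 9 arrays for 8 of 9, against 13.7%. Non-metastatic tumour 2 was the lowest of the 9 arrays for 5 of 9 genes, against 13.8%. The mice of non-metastatic tumours 1, 3 and 2 were also in this order of age at collection, at 354, 298 and 222 days. The part of age in the order of the genes was not tested, and the metastatic mice spanned 281 to 300 days.

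**Figure D3:**
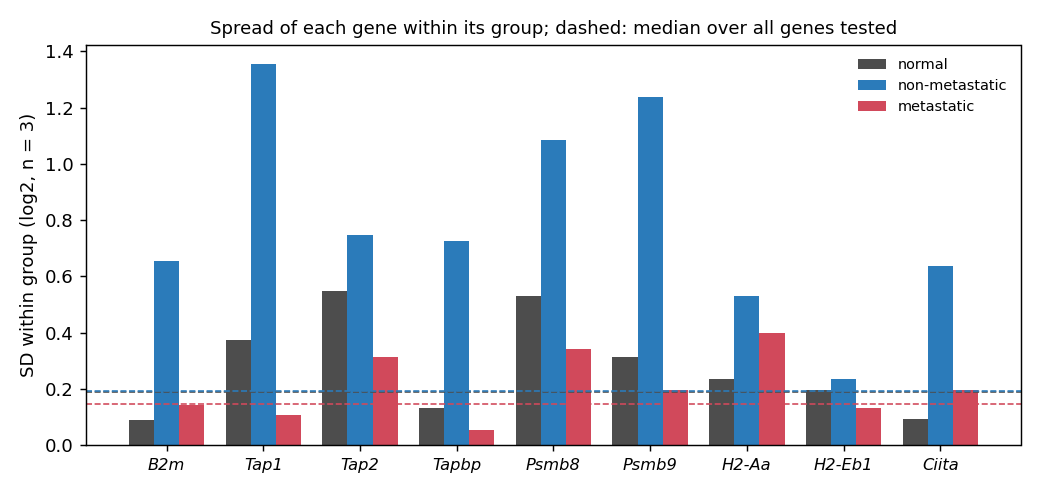
Standard deviation within each group (y axis, log2, n = 3) for the 9 genes (x axis), with dashed lines at the median SD of all genes tested in each group. The non-metastatic bar is the tallest for all 9 genes and reaches 1.36 for Tap1.

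The within-group SD was largest in the non-metastatic tumours for 9 of 9 genes, against 39.8% of all genes. It exceeded 0.5 there for 8 of 9 genes, all but H2-Eb1, against 13.3% of all genes. For the set the median SD was 0.23 in the normal, 0.73 in the non-metastatic and 0.19 in the metastatic group, where all genes tested had 0.19, 0.19 and 0.14. The metastatic SD was the smallest of the 3 groups in 6 of 9 genes and in 44% of all genes. With 3 arrays a group, an SD is itself imprecise.

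The genes varied together to different degrees. Taking each gene against the mean of the other 8 over the 9 arrays, Pearson's r was 0.98 for Psmb9, 0.96 for Tap1, 0.94 for Psmb8 and 0.92 for Tapbp. It was 0.87 for Tap2 and H2-Eb1 and 0.81 for B2m, and lower for Ciita at 0.66 and H2-Aa at 0.58. These values describe 9 arrays in 3 groups that share a normalisation, and they carry no test. Outside the set, the genes most like its mean were Inpp4b, Psmb10, H2-Q4 and Cd5 (r = 0.97 each), Il18bp and Phf11 (0.96 each) and Nlrc5 and Cxcl9 (0.95 each). Psmb10, H2-Q4 and Nlrc5 belong to the class I route themselves, and Cd5 is a surface protein of T cells.

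Other genes of the class I route differed in which arrays were high. Of 17 tested genes for class I heavy chains and loading, 6 were highest in non-metastatic tumour 1 and 4 lowest in non-metastatic tumour 2. Over all genes it was 13.7% and 13.8%. H2-Q10 was lowest in non-metastatic tumour 1. Nlrc5 and Psmb10 are given in full, as genes already picked for their likeness to the set. Nlrc5, the class I coactivator, read 6.92, 7.19 and 7.01 in normal glands, 8.68, 5.23 and 6.70 in non-metastatic tumours and 5.63, 5.65 and 5.42 in metastatic tumours. Non-metastatic tumour 1 was the highest and tumour 2 the lowest, and all metastatic tumours lay below all normal glands, with a change of -1.47 (SE 0.71, adjusted p 0.20 by limma) that did not pass. Psmb10, the remaining immunoproteasome catalytic subunit, read 8.89, 8.79 and 9.03 in normal glands, 9.63, 8.14 and 8.42 in non-metastatic tumours and 8.08, 8.03 and 8.13 in metastatic tumours. All metastatic tumours lay below all other arrays, but neither the change from normal, -0.83 (SE 0.33, adjusted p 0.14), nor that from non-metastatic tumours, -0.65 (SE 0.33, adjusted p 0.88), passed in limma. Without non-metastatic tumour 1 in the fit, the changes from normal of Nlrc5 (adjusted p 0.038) and Psmb10 (0.012) passed in limma, as they did with only the groups compared (0.0056 and 0.016) and with array weights (0.044 and 0.019).

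H2-K1, a class I heavy chain, read 10.52, 10.36 and 10.53 in normal glands, 10.98, 9.14 and 10.40 in non-metastatic tumours and 9.39, 9.32 and 9.17 in metastatic tumours. Its change from normal in metastatic tumours was -1.18 and did not pass in limma. It passed in 4 of 20 alternative settings, among them the fits without non-metastatic tumour 1 (adjusted p 0.044 by limma) or 2 (0.012). Class I heavy chains are near-identical copies, and probes of one can bind transcripts of another, so single H2 genes are uncertain. Of 17 tested genes among 23 listed for class I heavy chains and loading, 1 fell in metastatic tumours against normal gland, H2-M2 (-1.03, SE 0.20, adjusted p 0.019), where 6% of all genes fell. In non-metastatic tumours H2-M2 (-0.87, adjusted p 0.023) and Cd1d1, which presents lipids (-1.02, adjusted p 0.046), fell, and Pdia3, a chaperone of the loading complex, rose (0.48, adjusted p 0.042), all by limma, where 7.6% of all genes fell and 11.2% rose. Between the tumour groups 0 of 17 passed in limma, also at an unadjusted p under 0.05; the largest differences were Nlrc5 at -1.31, H2-Q10 at 0.93, H2-K1 at -0.88 and H2-Q4 at -0.85. These calls lie near the threshold. Without normal gland 1, the adjusted p was 0.078 for H2-M2 in non-metastatic and 0.066 in metastatic tumours, 0.14 for Cd1d1 and 0.099 for Pdia3. Other single arrays ended them as well: normal gland 2 or non-metastatic tumour 2 or 3 for H2-M2 in non-metastatic tumours, any metastatic tumour for H2-M2 in metastatic tumours, any array but normal gland 3 and metastatic tumour 3 for Cd1d1, and any array but normal gland 3 for Pdia3.

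Of 13 tested genes of the constitutive core among 14 listed, 2 rose in non-metastatic tumours, Psma7 (0.69, SE 0.14, adjusted p 0.017) and Psma2 (0.47, SE 0.12, adjusted p 0.030), by limma, near the 11.2% of all genes. In metastatic tumours against normal gland 0 of 13 passed in limma, and 0 also at an unadjusted p under 0.05, against 13.3% and 30.5% of all genes. Between the tumour groups 12 of 13 differences were negative, against 54.3% of all genes, with a median of -0.23. There 6 of 13 genes were lower in metastatic tumours without overlap, against 5.84% of all genes. In that comparison 0 passed in limma and 2 had an unadjusted p under 0.05, against 5.07% of all genes. These were Psmb4 (-0.39, SE 0.10) and Psma7 (-0.45, SE 0.14), both at adjusted p 0.88. Non-metastatic tumour 1 was the highest array for 8 of the 13, against 13.7% of all genes. The mean of the 13 gene-centred values lay between -0.21 and 0.23 on all 9 arrays, and that of the 6 class I processing genes of the set ran from -0.75 in non-metastatic tumour 2 to 1.14 in non-metastatic tumour 1. Of the 4 immunoproteasome and activator partners, 0 passed in any comparison in limma; 1 had an unadjusted p under 0.05 in each comparison of a tumour group with normal gland. Psma7 and Psma2 lost their call without normal gland 1 (adjusted p 0.057 and 0.076) or without normal gland 2 (0.054 and 0.091), and Psma2 also without non-metastatic tumour 1 or 2 or metastatic tumour 3.

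Among 14 tested of 15 listed further class II genes, 1 fell in non-metastatic tumours, the lysosomal protease Ctsb (-0.52, SE 0.15, adjusted p 0.047 by limma), where 7.6% of all genes fell. In metastatic tumours Ctsb differed by -0.51 (adjusted p 0.059), and 0 of 14 passed in limma, against 13.3% of all genes. At an unadjusted p under 0.05 in limma 3 of 14 passed, against 30.5% of all genes. Of the 14, 4 were lower in metastatic tumours without overlap, against 15.3% of all genes. Among them was H2-Ea, the alpha chain of I-E (-0.58, SE 0.26, adjusted p 0.17 by limma). These are RNA values, and whether I-E forms in these mice was not tested. The Ctsb call in non-metastatic tumours was lost in 14 of 20 alternative settings, among them the fits without normal gland 1 (adjusted p 0.11) or 2, non-metastatic tumour 1 or 2, or any metastatic tumour. H2-Ab1, the beta chain that pairs with H2-Aa, read 11.15, 10.67 and 11.04 in normal glands, 11.61, 10.02 and 10.74 in non-metastatic tumours and 10.67, 11.16 and 10.38 in metastatic tumours. As for H2-Aa, non-metastatic tumour 1 was the highest, non-metastatic tumour 2 the lowest and metastatic tumour 2 the second highest. Of 5 costimulatory genes, 0 passed in any comparison in limma, and 0 at an unadjusted p under 0.05 in each comparison between 2 groups. Over all genes that share was 5.07% between the tumour groups, 34.4% in non-metastatic and 30.5% in metastatic tumours against normal gland.

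Of 7 listed and tested factors that bind class II promoters with Ciita, 2 rose in each tumour group and 5 did not pass, where 11.2% of all genes rose in non-metastatic and 7.35% in metastatic tumours. Nfyc and Nfya, subunits of the CCAAT-binding factor NF-Y, rose in non-metastatic tumours (0.52 and 0.49, adjusted p 0.022 and 0.030) and in metastatic tumours (0.65 and 0.54, adjusted p 0.016 and 0.029) by limma. Nfyc read 8.90, 8.64 and 8.85 in normal glands, 9.18, 9.30 and 9.48 in non-metastatic tumours and 9.54, 9.37 and 9.43 in metastatic tumours, with no overlap between normal glands and tumours. Both are general factors that act on many promoters. Without normal gland 2, the Nfya calls were lost (adjusted p 0.092 and 0.088), and so was that of Nfyc in non-metastatic tumours (0.068). Leaving out normal gland 3 (Nfya) or 1 (Nfyc) or non-metastatic tumour 2 or 3 also ended the non-metastatic calls, and leaving out any metastatic tumour for Nfya, or metastatic tumour 1 or 3 for Nfyc, the metastatic ones. With both tumour groups averaged against normal gland, 4 of 7 rose by limma, where 13.6% of all genes rose. Besides Nfyc and Nfya these were Nfyb (0.46, adjusted p 0.041) and Creb1 (0.36, adjusted p 0.047).

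Upstream of both routes, the receptor chain Ifngr1, which binds interferon-gamma, was lower in every tumour. It read 10.95, 10.95 and 10.77 in normal glands (mean 10.89 ± 0.10, SD, n = 3) and 9.93, 9.95 and 9.84 in non-metastatic tumours (9.91 ± 0.06), and the metastatic mean was 9.87 ± 0.11, with the lowest array at 9.79. The 6 tumours lay close together and clear of the normal glands, and Ifngr1 did not follow the order of the 9 genes among the non-metastatic tumours. It fell by 0.98 in non-metastatic and by 1.01 in metastatic tumours (SE 0.10 each, adjusted p 0.0023 and 0.0021 by limma), and the call held with each array left out in turn. With age as a covariate the differences were -0.95 and -0.98, with adjusted p 0.75 and 0.83 in limma. Of 13 tested among 14 listed interferon signalling genes, Ifngr1 alone fell in non-metastatic tumours by limma, where 7.6% of all genes fell. In metastatic tumours Ifnar2, a type I interferon receptor chain, fell as well (-0.50, adjusted p 0.035 by limma), where 6% of all genes fell. Ifnar2 did not pass in the fits that left out normal gland 1 (adjusted p 0.10), normal gland 2 or metastatic tumour 1 or 2. With both tumour groups averaged against normal gland, Ifngr1 and Ifnar2 fell by limma, where 9.13% of all genes fell. Ifnar1, also a type I interferon receptor chain, rose there (0.29, adjusted p 0.044 by limma), where 13.6% of all genes rose. Of the 13 genes, 3 were highest in non-metastatic tumour 1, against 13.7% of all genes. Among these, Stat2 read 10.14 there and 7.44 to 7.98 on the other arrays. Its difference between the tumour groups did not pass in limma (-0.98, adjusted p 0.88). Ifng itself read 4.92 to 5.28 on all arrays, near the 30th percentile of an array (4.83 to 4.95).

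Of 10 tested interferon-gamma targets outside the MHC, 9 were highest in non-metastatic tumour 1, against 13.7% of all genes, and Cd274 was highest in normal gland 1. The mean of 10 gene-centred targets was 2.15 in non-metastatic tumour 1, -0.61 and -0.30 in the other non-metastatic tumours, -0.66 to -0.62 in metastatic tumours and 0.00 to 0.49 in normal glands. Igtp, an interferon-induced GTPase, read 10.82 in non-metastatic tumour 1 and 6.37 to 7.65 on the other 8 arrays. Between the tumour groups 10 of 10 targets had a negative difference, against 54.3% of all genes, with a median of -1.02. But 0 passed in limma and 1 had an unadjusted p under 0.05, against 5.07% of all genes. The largest were Igtp (-1.72, SE 0.91), Iigp1 (-1.56, SE 0.83), Gbp3 (-1.29, SE 0.75) and Irgm2 (-1.09, SE 0.69), all at adjusted p 0.88, and without non-metastatic tumour 1 these shrank to -0.44, -0.47, -0.23 and -0.13. Cd274, which encodes the checkpoint ligand PD-L1, fell in metastatic tumours against normal gland (-2.11, SE 0.39, adjusted p 0.016) and in non-metastatic tumours (-1.32, adjusted p 0.049), by limma. The second of these calls was lost in 14 of 20 alternative settings, among them the fits without normal gland 1 or 2, non-metastatic tumour 2 or 3 or any metastatic tumour. The first was lost without normal gland 1 (adjusted p 0.057), normal gland 2 (0.054), metastatic tumour 1 (0.05001) or metastatic tumour 3 (0.059).

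**Figure D4:**
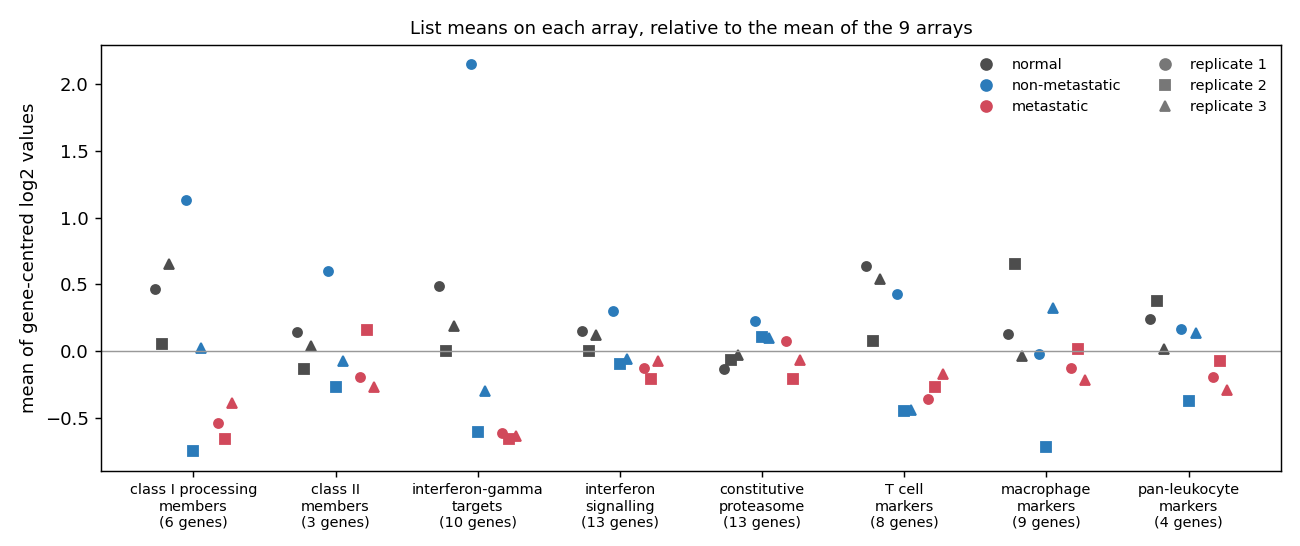
Mean of gene-centred log2 values (y axis, 0 is the mean of the 9 arrays) of gene lists (x axis) on each array, coloured by group and shaped by replicate. Non-metastatic tumour 1 is the highest array for the 6 class I processing genes at 1.14, the 3 class II genes at 0.60 and the interferon-gamma targets at 2.15, while for T cell markers normal glands 1 and 3 are higher.

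Markers of immune cells, which carry much MHC RNA, were set beside these values. The mean of 8 gene-centred T cell markers was 0.08 to 0.64 in normal glands, 0.42, -0.45 and -0.44 in non-metastatic tumours 1, 2 and 3 and -0.36 to -0.17 in metastatic tumours. Against normal gland 8 of 8 T cell markers were negative in each tumour group. Over all genes it was 44.4% in non-metastatic and 44.8% in metastatic tumours. In metastatic tumours 1 marker, Cd3g, fell (-1.44, SE 0.35, adjusted p 0.035 by limma), where 6% of all genes fell. In non-metastatic tumours 0 of 8 fell, where 7.6% of all genes did. Cd3e, a chain of the T cell receptor complex, read 8.58, 7.83 and 8.53 in normal glands, 8.56, 6.86 and 6.72 in non-metastatic tumours and 7.35, 7.41 and 7.30 in metastatic tumours. The mean of 4 markers of all leukocytes was 0.02 to 0.37 in normal glands, 0.17, -0.37 and 0.13 in non-metastatic tumours and -0.30 to -0.08 in metastatic tumours. In each tumour group 4 of 4 were negative against normal gland, and 0 passed the threshold in limma. Over all genes 18.8% passed in non-metastatic and 13.3% in metastatic tumours. At an unadjusted p under 0.05 in limma 2 of 4 passed in metastatic tumours, against 30.5% of all genes. In non-metastatic tumours it was 0 of 4, against 34.4%. The mean of 9 macrophage markers was -0.02, -0.72 and 0.32 in non-metastatic tumours 1, 2 and 3, so that tumour 1 was not the highest. It was -0.03 to 0.65 in normal glands and -0.22 to 0.02 in metastatic tumours. Of the 9, 8 were negative in non-metastatic and 7 in metastatic tumours against normal gland, and 0 passed in limma. At an unadjusted p under 0.05 in limma it was 3 and 0 of 9, against 34.4% and 30.5% of all genes. Against normal gland 1 of 7 dendritic and 1 of 4 natural killer cell markers fell in each tumour group by limma. Of 5 B cell markers 1 fell in non-metastatic and 0 in metastatic tumours. Over all genes 7.6% fell in non-metastatic and 6% in metastatic tumours. The part of these cells, of basal epithelium, of fat and of age in the differences of the MHC genes was not tested.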

How the data were processed

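RNA from frozen mammary tissue was put on Mouse Gene 2.0 ST arrays, 1 per mouse. The deposited table holds 41345 probe sets on 9 arrays in log2 units, which the authors made with RMA (background correction, quantile normalisation and probe summary) per the submitters' processing notes. The RMA version, probe set level and genome build are not given in the sources used here, and no scanner files were used. Precision is set by the number of arrays, which have no read depth.

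Of the probe sets, 23521 had 1 gene symbol, 1814 several, and 16010 were not listed. The probe set with the highest mean stood for a gene. A gene was tested if it exceeded the 30th percentile of its array in 3 arrays or more (17478 of 22180), and all 9 genes of the set passed. The 3 group means were estimated jointly from the 9 arrays with limma 3.58.1 and eBayes (R 4.3.3, 6 residual degrees of freedom). P was two-sided and adjusted by Benjamini-Hochberg over all genes tested, and the threshold was 0.05. Groups came from the sample titles, and the replicates are separate mice.

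The members, the 8 pathway lists and the 12 marker lists were chosen with earlier results of these data known. Named were all members, pathway list genes past the threshold (otherwise, for some lists, the largest changes, up to 4), Wnt1, and the 8 genes most like the mean of the set. H2-Ab1, Cd3e, Cd3g, Epcam, Ifng and the basal epithelial markers were named after their values were seen. Of the 94 pathway genes listed, 83 were tested. Motifs were read in RefSeq sequences.

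Alternatives were another filter, probe set rule, normalisation, eBayes option, array weights, only the groups compared, the replicate number as a block, age as a covariate, and each array left out. The fit was tested on simulated data with 200 of 17478 genes changed: a change of 1 was called for 63% of genes in metastatic against non-metastatic tumours, for 67% and 62% for non-metastatic and metastatic tumours and 73% for both against normal gland, and none had the wrong sign. In each comparison 8 to 14 unchanged genes were called as well. Each simulated gene had the same SD in all groups, and the changed genes were drawn from all genes. These shares do not give the recovery for the set. Its median SD in non-metastatic tumours was 0.73, against 0.19 for all genes.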

Additional observations from a re-analysis of the deposited data

Results flagged for a closer look

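In the 6 tumours, 3 of the 9 genes had a single tumour far from the rest, by the gap to its neighbour divided by the whole range (Dixon's ratio, 95% critical value 0.625 for 6 samples). It was non-metastatic tumour 1, the highest, each time. The ratio was 0.659 for Tap1, with a gap of 1.76, 0.707 for Tapbp, with a gap of 0.95, and 0.693 for Ciita, with a gap of 0.84. H2-Eb1 at 0.61, Psmb9 at 0.60, Tap2 at 0.54 and Psmb8 at 0.49 had the same tumour highest and stayed under the critical value. For B2m and H2-Aa the widest end gap was at non-metastatic tumour 2, the lowest, with ratios of 0.26 and 0.15. Chance flags about 1 in 20 groups, and genes that vary together are not separate observations.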

How the results depend on the processing

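The count of 0 genes past the threshold held under most settings. With array weights it was 5 in metastatic and 3 in both tumour groups against normal gland (normal gland 1 then weighed 7.50, the others 0.44 to 1.79), and with only the groups compared it was 4 in metastatic tumours. With normal gland 2 and non-metastatic tumour 1 both left out, chosen after seeing the data, it was 1 in non-metastatic, 1 in metastatic and 3 in both. With single arrays left out it ranged from 0 to 1, 0 to 2 and 0 to 3 in these comparisons and stayed at 0 between the tumour groups. The replicate number as a block left it at 0 in all 4 comparisons; same-numbered arrays did not vary together (r of -0.281 to 0.171 over 9 pairs), and the block lowered the calls over all genes in metastatic tumours from 2332 to 1299.

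Of the log2 differences of the 9 genes, 629 kept direction and side of the threshold, 24 newly passed and 58 changed sign. Age as a covariate gave 23 of the changes of sign: in non-metastatic tumours B2m 1.82, Tap2 1.91, Tapbp 1.87, Psmb8 3.45, Psmb9 3.70, H2-Aa 1.61 and H2-Eb1 0.52; in metastatic tumours B2m 1.51, Tap1 3.72, Tap2 1.45, Tapbp 1.72, Psmb8 2.41, Psmb9 2.92, H2-Aa 1.67 and H2-Eb1 0.26; in both B2m 1.67, Tap1 4.22, Tap2 1.68, Tapbp 1.80, Psmb8 2.93, Psmb9 3.31, H2-Aa 1.64 and H2-Eb1 0.39. Likewise Cd274 was 0.14 in non-metastatic tumours, and Nlrc5 4.83, H2-K1 2.18, H2-Q4 2.55, Psmb10 1.73 and H2-Ea 1.45 in metastatic tumours; of the differences of the list genes named, 532 stayed as they were, 124 lost their call, 16 newly passed and 6 changed sign. No gene on the array passed against normal gland in that fit, in which the ages of normal and tumour-bearing mice do not overlap. Other values with changed sign were H2-Eb1 0.067 under quantile normalisation and 0.071 under median centring, where Psmb8 was 0.034, all in non-metastatic tumours. With array weights H2-Aa was -0.039 between the tumour groups and Ciita -0.012 in metastatic tumours. With both arrays left out, Tapbp was 0.24 and Ciita 0.044 between the tumour groups, Tap1 -0.75 and Ciita -0.055 in non-metastatic tumours, and Ciita -0.0105 in metastatic tumours and -0.033 in both.

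With single arrays left out, these ranges spanned 0. In non-metastatic tumours they were -0.58 to 0.028 for B2m, -0.55 to 0.78 for Tap1, -0.63 to 0.45 for Psmb8, -1.09 to 0.14 for Psmb9, -0.40 to 0.13 for H2-Aa, -0.16 to 0.053 for H2-Eb1 and -0.0028 to 0.56 for Ciita. In metastatic tumours they were -0.30 to 0.10 for H2-Aa and -0.069 to 0.12 for Ciita, and in both -0.25 to 0.020 for H2-Aa. Between the tumour groups they were -0.43 to 0.24 for Tapbp, -0.22 to 0.31 for H2-Aa and -0.52 to 0.044 for Ciita. Causes were not tested.

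Calls over all genes with single arrays left out or other fits ranged from 0 to 40 between the tumour groups, 0 to 5360 in non-metastatic, 0 to 6498 in metastatic and 0 to 7603 in both tumour groups against normal gland. With 3 arrays a group, the 95% intervals of the 9 genes between the tumour groups reach from -2.38 to 0.71, and each of them holds 0.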
